A study of Mus musculus with 11 samples.

Results

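Wild-type (WT) embryoid bodies (EBs) were compared with WT embryonic stem cells (ESCs) of the mouse across all genes with a mean normalised read count of 10 or more over the 5 WT libraries, which kept 15567 of 39179 gene identifiers. The series holds RNA-seq of mouse cells that carry or lack Mettl3, an enzyme that methylates adenosines in messenger RNA, and here 2 WT EB libraries (A and B) stand against 3 WT ESC libraries (A, B and C). Both groups are strain C57BL/6 with an intact Mettl3 gene. EBs were cell clumps grown without attachment for 8 to 21 days in medium with 15% serum, and the labels do not give the day for each library. ESCs were kept without serum in N2B27 medium with recombinant human LIF, 1 to 3 µM CHIR99021 (an inhibitor of the kinase GSK3) and 1 µM PD0325901 (an inhibitor of the kinase MEK). The replicates are called biological, with no word on whether they are separate lines, clones or cultures, so the p-values measure the spread between libraries. That spread was taken over the ESC and EB libraries of both genotypes, Mettl3 knockout included, although only WT groups are compared.

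An EB is a mixed aggregate in which ESCs, once released from LIF and the inhibitors, start to form derivatives of the early embryo. Its outer layer usually turns into primitive endoderm, the extraembryonic lineage that yields parietal endoderm, which secretes a thick basement membrane, and visceral endoderm, which absorbs and carries nutrients for the embryo. Inside, epiblast-like cells may go on to mesoderm, ectoderm and gut endoderm. In such a bulk sample, fewer cells of a type and less RNA per cell cannot be told apart.

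ESC replicate C, which per the labels was used with a protein assay by SILAC, stood apart from A and B. Reads in genes numbered 10653107 and 9124838 in WT EBs, against 12480803, 11143552 and 3026837 in WT ESCs (values for ESCs are given in the order A, B, C throughout). Over the tested genes, the correlation of log2 values was 0.989 for the EB pair, 0.899 to 0.905 for an EB library with ESC A or B, 0.990 for ESC A with B, and 0.662 to 0.680 for C with each other library. Noncoding RNAs that lack a poly(A) tail had almost no reads in C. Rn7sk, the RNA that holds back a transcription elongation kinase, had 92183 and 96834 in WT EBs, against 100484, 107834 and 0 in WT ESCs. The summed level of replication-dependent histone genes was 82468 and 64835 in WT EBs, against 122400.0, 102102 and 168 in WT ESCs. The 6 Y-linked genes examined had reads in every library but C, where 3 reads would have given 9.88. Ddx3y, chosen after its values were seen, had 104 and 138 in WT EBs, against 106, 140.4 and 0 in WT ESCs. Over 557 tested genes of the X chromosome the median log2 difference of C from A and B was 0.79, while the medians of the 19 autosomes lay between -0.51 and 0.01. Results are therefore given with and without replicate C, and the part that these features of C play in them was not tested. Mettl3 itself had 399 and 368 in WT EBs, against 422, 392 and 425 in WT ESCs, and the groups overlapped.

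With all 5 libraries, 428 of the 15567 genes differed (limma, adjusted p under 0.05), that is 2.75%, with 346 higher in EBs (2.22%) and 82 lower (0.527%). Without replicate C of WT and knockout ESCs, 7255 genes differed (46.6%), 3546 higher (22.8%) and 3709 lower (23.8%). All 428 were among them in the same direction. Below, without C means this fit, so knockout replicate C is missing from the spread too. The median size of the difference with all libraries was 2.91 on the log2 scale among the higher and 1.34 among the lower genes, and 231 of the 346 higher genes differed by 4-fold or more. The count rested on few libraries: it was 5 without EB replicate A, 5 without EB replicate B, 156 without ESC replicate A, 136 without ESC replicate B and 771 without WT ESC replicate C alone. Both EB libraries lay above all 3 ESC libraries for 23.3% of tested genes and below all 3 for 19.6%. Of the 3546 genes higher without C, 2599 lay above all 3 ESC libraries, and 834 lay above A and B but below C. Of the 3709 lower genes, 2006 lay below all 3, and 1534 lay below A and B but above C. The median log2 difference of all tested genes was 0.08 with C and -0.04 without it, and the medians of gene lists stand beside these. Genes with almost no reads in ESCs reach the expression minimum only through EBs, so for them a lower call was not possible. At the expression minimum, the last gene inside was Dach2 with a mean of 10.0, 6.90 and 6.03 in WT EBs, against 15.0, 12.2 and 9.88 in WT ESCs, and the first outside was Mmp10 with a mean of 9.99967, 19.2 and 30.1 in WT EBs, against 0.715, 0 and 0 in WT ESCs.

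**Figure D1:**
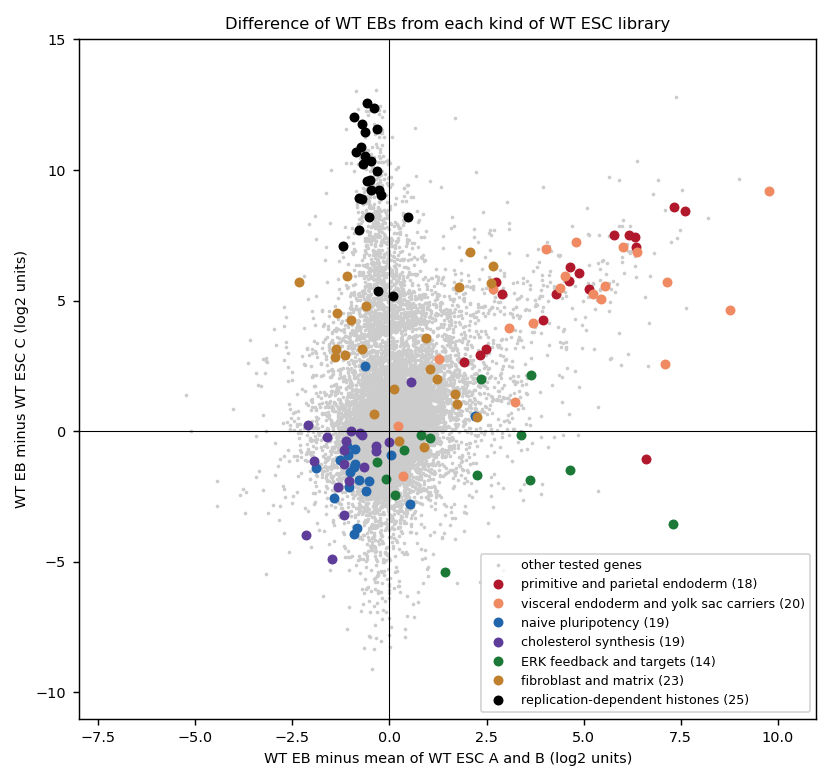
Each point is 1 of the 15567 tested genes, with its log2 difference of WT EBs from the mean of ESC replicates A and B on the x axis and from ESC replicate C on the y axis, and 7 gene lists in colour with their number of tested members. Endoderm genes sit far to the upper right, naive pluripotency genes to the lower left, ERK target genes mostly to the right and below the horizontal line, and histone genes at the top near the vertical line.

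The neighbours Col4a1 and Col4a2 rose together in EBs, as did Krt8 and Krt18, and their promoters are shown for that reason. Col4a1 and Col4a2, which encode the main chains of basement membrane collagen IV, lie head to head on chromosome 8, and their annotated genes overlap by 22 bases at their starts. Krt8 and Krt18, which encode the keratin partners of simple epithelia, point away from each other on chromosome 15 with 23698 bases between their starts. The windows run from 250 bases before to 50 bases after the RefSeq start on build GRCm38.p6 and read 5′ to 3′ in the direction of the gene. They lie at chr8:11312777-11313076 on the minus strand for Col4a1, chr8:11312555-11312854 on the plus strand for Col4a2, chr15:102004293-102004592 on the minus strand for Krt8 and chr15:102027966-102028265 on the plus strand for Krt18.
Col4a1: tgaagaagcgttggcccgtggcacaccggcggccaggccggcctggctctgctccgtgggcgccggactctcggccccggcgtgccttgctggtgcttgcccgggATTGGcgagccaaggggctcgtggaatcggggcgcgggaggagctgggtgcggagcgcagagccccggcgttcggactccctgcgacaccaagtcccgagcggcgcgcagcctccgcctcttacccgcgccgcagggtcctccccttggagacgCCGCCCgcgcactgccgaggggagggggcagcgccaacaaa
Col4a2: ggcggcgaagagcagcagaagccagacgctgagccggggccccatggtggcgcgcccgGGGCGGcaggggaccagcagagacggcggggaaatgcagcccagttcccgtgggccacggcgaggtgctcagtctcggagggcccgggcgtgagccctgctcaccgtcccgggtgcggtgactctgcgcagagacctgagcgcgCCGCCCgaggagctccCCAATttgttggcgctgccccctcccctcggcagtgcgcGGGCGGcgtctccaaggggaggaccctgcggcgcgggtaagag
Krt8: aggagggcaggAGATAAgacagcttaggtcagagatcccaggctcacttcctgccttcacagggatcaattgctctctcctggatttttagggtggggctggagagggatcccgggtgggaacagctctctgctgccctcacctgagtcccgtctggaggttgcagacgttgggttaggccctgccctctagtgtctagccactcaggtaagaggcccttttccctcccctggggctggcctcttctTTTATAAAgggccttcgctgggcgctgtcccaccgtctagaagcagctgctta
Krt18: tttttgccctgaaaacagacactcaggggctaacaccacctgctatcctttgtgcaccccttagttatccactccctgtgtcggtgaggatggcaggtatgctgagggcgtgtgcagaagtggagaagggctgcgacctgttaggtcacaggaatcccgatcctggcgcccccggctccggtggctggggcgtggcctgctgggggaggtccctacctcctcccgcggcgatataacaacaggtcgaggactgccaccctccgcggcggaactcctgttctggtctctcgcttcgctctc
Capitals mark CCAAT and GGGCGG in the collagen windows and AGATAA and TATAAA in the keratin windows, on either strand. The 2 collagen windows share 78 bases, and these hold 1 GGGCGG element that both windows show. Krt8 has TATAAA matches on both strands that overlap each other, and Krt18 holds neither keratin motif. Among 32851 RefSeq windows of the same length, 37.4% hold CCAAT, 35.7% GGGCGG, 11.2% AGATAA and 13.6% TATAAA, so a match is only a description of the letters. No window was found for Gata4, Sox17 or Lama1.

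Of the 38 gene lists described, primitive and parietal endoderm had the highest share of tested members that rose with all 5 libraries. The lists were chosen with earlier results of these data known, so this rank is not independent evidence. In this list, 16 of 18 tested genes were higher and 0 lower with all 5 libraries, and 18 were higher and 0 lower without C. The median log2 differences were 5.10 and 4.77. The shares of all genes that were higher were 2.22% with C and 22.8% without it. Gata6, a zinc finger factor that sets up primitive endoderm, had 627 and 545 in WT EBs, against 22.2, 22.1 and 6.59 in WT ESCs. Its relative Gata4 had 999.9 and 832 in WT EBs, against 23.6, 26.7 and 19.8 in WT ESCs. For both factors every EB library exceeded every ESC library by more than 10-fold, and the log2 differences, with the standard error of the fit, were 5.20 ± 0.82 with C (adjusted p = 0.0204) and 4.66 ± 0.17 without C for Gata6. Gata4 gave 5.24 ± 0.41 with C (adjusted p = 0.00230) and 5.13 ± 0.21 without C. Sox17, an endoderm factor of the SOX family, had 1695 and 1223 in WT EBs, against 17.9, 15.3 and 9.88 in WT ESCs, a difference of 6.59 ± 1.00 with C (adjusted p = 0.0173) and 6.36 ± 0.19 without C. Foxa2, a forkhead factor of visceral and definitive endoderm, had 409.9 and 288 in WT EBs, against 2.15, 0 and 0 in WT ESCs, a difference of 7.88 ± 1.06 with C (adjusted p = 0.0118) and 7.60 ± 0.66 without C. Sox7, a close relative of Sox17, was an exception in that EBs stood above A and B but below C. It had 98.1 and 95.6 in WT EBs, against 0, 0 and 204 in WT ESCs, and its difference was 4.05 ± 2.46 with C (adjusted p = 0.537) and 6.61 ± 0.50 without C.

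Receptors and adaptors of this lineage rose too, with both EB libraries above every ESC library, as in 23.3% of all tested genes. Pdgfra, the PDGF receptor that marks primitive endoderm from early on, had 1309 and 1455 in WT EBs, against 23.6, 24.4 and 6.59 in WT ESCs. Dab2, an endocytic adaptor of extraembryonic endoderm, had 889 and 994 in WT EBs, against 28.6, 33.6 and 13.2 in WT ESCs. Pth1r, the receptor for parathyroid hormone-related protein that parietal endoderm carries, had 1768 and 1522 in WT EBs, against 9.30, 9.16 and 3.29 in WT ESCs, a difference of 7.74 ± 0.94 with C (adjusted p = 0.00842) and 7.33 ± 0.17 without C. Thbd (thrombomodulin) and Fst (follistatin, which binds activin) rose with log2 differences of 4.05 and 2.70. Plat, the tissue plasminogen activator, passed only without C. It had 392 and 401 in WT EBs, against 55.8, 61.1 and 6.59 in WT ESCs, a difference of 3.73 ± 0.94 with C (adjusted p = 0.0974) and 2.74 ± 0.27 without C.

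Basement membrane genes took a share of the RNA that was more than 10 times larger in EBs. Col4a1 had 49822 and 49659 in WT EBs, against 634, 614 and 283 in WT ESCs, a 97.5-fold difference of means and 6.69 ± 0.39 with C (adjusted p = 0.00112) and 6.32 ± 0.07 without C on the log2 scale. Col4a2 had 23895 and 22925 in WT EBs, against 347, 304 and 128 in WT ESCs, a difference of 6.61 ± 0.39 with C (adjusted p = 0.00112) and 6.17 ± 0.08 without C. Together they took 1.09% of protein-coding reads in each EB library, against 0.0138%, 0.0132% and 0.00422% in WT ESCs. The exact 95% binomial interval of the share in C runs from 0.00351% to 0.00502% and covers counting error only. Lama1, Lamb1 and Lamc1, the chains of the main embryonic laminin, together took 1.27% and 1.29% of protein-coding reads in WT EBs, against 0.103%, 0.106% and 0.0451% in WT ESCs.

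Levels per kilobase of exon show how the chains relate to each other. Lama1 had 3894 and 3978 in WT EBs, against 157, 163 and 72.8 in WT ESCs on that scale. Lamb1 had 2481 and 2515 in WT EBs, against 126, 131 and 65.1 in WT ESCs. Lamc1 had 2798 and 2723 in WT EBs, against 551, 543 and 369 in WT ESCs. Lama1 was the highest of the 3 chains in both EB libraries, and Lamc1 the highest in all 3 ESC libraries. Log2 differences were 5.00 ± 0.77 with C (adjusted p = 0.0187) and 4.62 ± 0.07 without C for Lama1. For Lamb1 they were 4.61 ± 0.29 with C (adjusted p = 0.00141) and 4.28 ± 0.06 without C. Lamc1 had the smallest of the 3, at 2.52 ± 0.40 with C (adjusted p = 0.0214) and 2.34 ± 0.06 without C. Col4a1 had 6675 and 6653 in WT EBs, against 84.9, 82.2 and 38.0 in WT ESCs per kilobase. Col4a2 had 3610.1 and 3464 in WT EBs, against 52.4, 45.9 and 19.4 in WT ESCs per kilobase, below Col4a1 in all 5 libraries. Sparc, a collagen-binding glycoprotein abundant in parietal endoderm, had 29366 and 27978 in WT EBs, against 7575, 7530.0 and 4559 in WT ESCs without scaling by length, a difference of 2.17 ± 0.28 with C (adjusted p = 0.0102) and 1.92 ± 0.07 without C.

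Single genes for collagen folding and matrix turnover are given here, with no list of their own. Serpinh1 already counts in the primitive and parietal endoderm list, and P4ha1 counts in the glycolysis and hypoxia list. Serpinh1, the collagen chaperone known as heat shock protein 47, had 13535 and 12385 in WT EBs, against 1800.5, 1666 and 343 in WT ESCs, a difference of 3.68 ± 0.65 with C (adjusted p = 0.0296) and 2.90 ± 0.08 without C. P4ha1, a catalytic subunit of collagen prolyl hydroxylase, had 4235 and 4472 in WT EBs, against 557, 523 and 379 in WT ESCs. The next 5 genes were chosen after their values were seen, so their shared direction comes from that choice. P4ha2, another catalytic subunit, had 2228 and 2226 in WT EBs, against 179, 207 and 85.6 in WT ESCs. Their shared partner P4hb had 11883 and 12528 in WT EBs, against 6083, 6032 and 5824 in WT ESCs, a smaller difference of 1.03 ± 0.14 with C (adjusted p = 0.0114) and 1.01 ± 0.06 without C. Plod2, a collagen lysyl hydroxylase, rose by 2.91 on the log2 scale with all libraries, Tinagl1, a basement membrane protein, by 5.94, and Adamts9, a secreted metalloprotease, by 4.51.

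**Figure D2:**
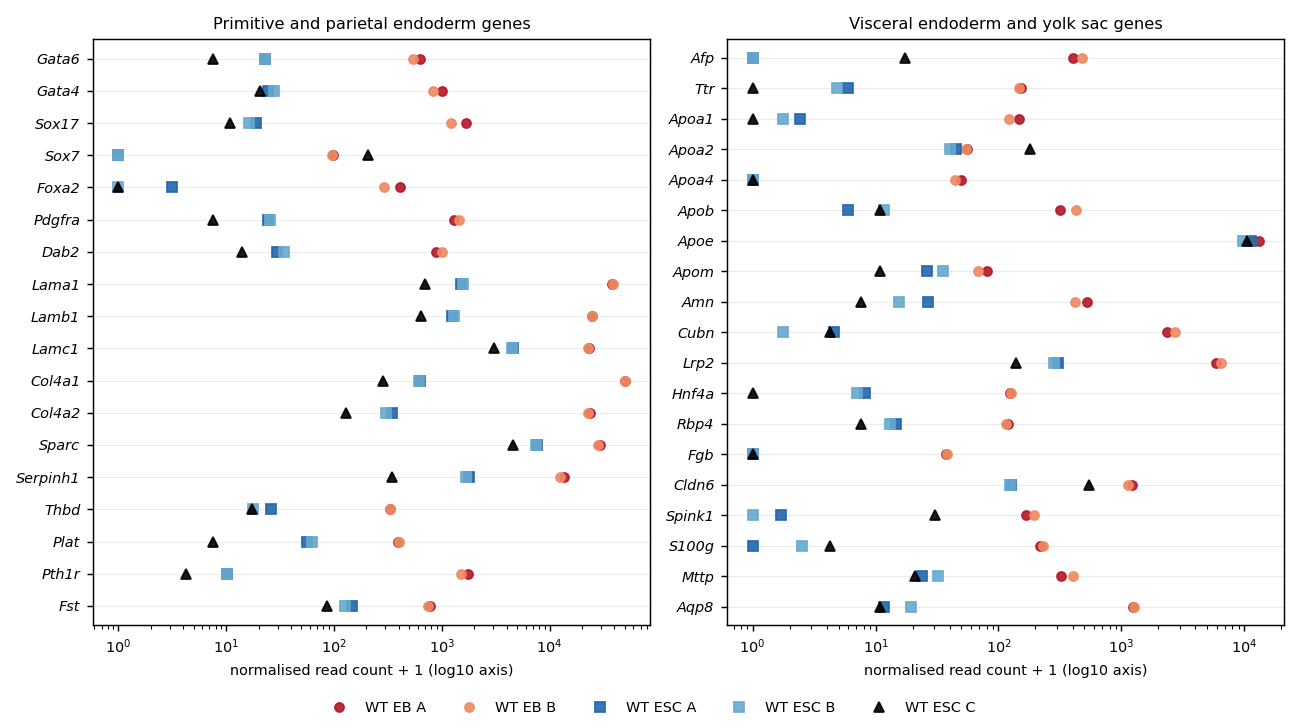
Normalised read count plus 1 in each of the 5 WT libraries (log10 axis) for tested members of 2 lists, with WT EBs as circles, WT ESC A and B as squares and WT ESC C as a triangle. In the left panel both EB circles lie right of every ESC symbol for 17 of 18 genes, the exception being Sox7. In the right panel they do so for 17 of 19, the exceptions being Apoa2 and Apoe. Of all tested genes, 23.3% held this position.

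Genes of visceral endoderm and the yolk sac also rose. 12 of 20 tested genes (of 24 listed) were higher and 0 lower with all 5 libraries, and 18 were higher and 0 lower without C, with median log2 differences of 5.13 and 4.66. Among all genes, 2.22% were higher with C and 22.8% without it. Members with almost no reads in ESCs, such as Apoa4 and Fgb, reached the expression minimum only through their EB values. For these members a lower call was not possible. Receptors for uptake were among the endoderm genes that rose. Cubn, the cubilin receptor for vitamin B12 with intrinsic factor and for apolipoprotein A-I, had 2335 and 2702 in WT EBs, against 3.58, 0.763 and 3.29 in WT ESCs, a difference of 9.59 ± 0.71 with C (adjusted p = 0.00198) and 9.79 ± 0.51 without C. Its membrane partner Amn (amnionless) had 522 and 416 in WT EBs, against 25.8, 14.5 and 6.59 in WT ESCs. Lrp2 (megalin), which works with cubilin, had 5906 and 6409 in WT EBs, against 304, 282 and 138 in WT ESCs, a difference of 4.75 ± 0.40 with C (adjusted p = 0.00261) and 4.39 ± 0.08 without C. In all 3 genes both EB libraries lay above every ESC library, as in 23.3% of all tested genes. Lrpap1, the chaperone of this receptor family, chosen after its values were seen, rose by 1.52 on the log2 scale.

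Several secreted carriers of the yolk sac had far more reads in WT EBs than in WT ESCs. Afp (alpha-fetoprotein) had 405 and 473 in WT EBs, against 0, 0 and 16.5 in WT ESCs. Ttr (transthyretin, which carries thyroid hormone and retinol-binding protein) had 152 and 146 in WT EBs, against 5.01, 3.82 and 0 in WT ESCs. Apoa1, the main protein of HDL, had 146 and 121 in WT EBs, against 1.43, 0.763 and 0 in WT ESCs, a difference of 6.37 ± 0.55 with C (adjusted p = 0.00261) and 6.02 ± 0.31 without C. Apoa4 and Fgb had no read in any ESC library. Apoa4 had 49.0 and 43.0 in WT EBs, against 0, 0 and 0 in WT ESCs, at least 46.2-fold higher when 3 reads over the ESC group are taken as the floor. Fgb (fibrinogen beta chain) had 36.8 and 37.0 in WT EBs, against 0, 0 and 0 in WT ESCs, at least 37.0-fold higher. Apoa4 shares 69.8% of its exon bases with antisense transcripts, and the library kit does not keep the strand. Apob, the protein of LDL, passed only without replicate C of both genotypes, although its value in WT replicate C lay between A and B. It had 313 and 425 in WT EBs, against 5.01, 10.7 and 9.88 in WT ESCs, a difference of 5.45 ± 0.43 (adjusted p = 2.06e-05) without C. Rbp4 (retinol-binding protein) had 118 and 114 in WT EBs, against 13.6, 12.2 and 6.59 in WT ESCs, a difference of 3.08 ± 0.36 (adjusted p = 0.000180) without C. Apoe and Apoa2 had overlapping groups, Apoe with 13164 and 11276 in WT EBs, against 11304, 9771 and 10547 in WT ESCs. Alb, Fga, Trf and Foxa1 were under the expression minimum, Alb with 0.766 and 0.861 in WT EBs, against 0, 0 and 0 in WT ESCs.

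Regulators and transporters of this layer were higher as well. Hnf4a, the nuclear receptor that controls hepatic and visceral endoderm genes, had 123 and 125 in WT EBs, against 7.15, 6.11 and 0 in WT ESCs, a difference of 5.01 ± 0.89 with C (adjusted p = 0.0299) and 4.04 ± 0.25 without C. Mttp, which loads lipid onto Apob, had 324 and 405 in WT EBs, against 22.9, 31.3 and 19.8 in WT ESCs. Aqp8, a water channel, had 1245 and 1253 in WT EBs, against 10.7, 18.3 and 9.88 in WT ESCs. S100g, a cytosolic calcium carrier, had 217 and 231 in WT EBs, against 0, 1.53 and 3.29 in WT ESCs. Ctsl, a lysosomal protease that is abundant in yolk sac, had 7068 and 7918 in WT EBs, against 1919, 2104 and 2441 in WT ESCs, although 26.8% of its exon bases lie under antisense transcripts. Lgmn (legumain), another lysosomal protease, chosen after its values were seen, had 3873 and 3929.7 in WT EBs, against 711, 687 and 293 in WT ESCs. In these 6 genes both EB libraries lay above every ESC library, as in 23.3% of all tested genes, and the choice of Lgmn already used its values.

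Simple epithelial keratins rose beside endoderm genes. Krt8 had 3989 and 4132 in WT EBs, against 66.5, 76.3 and 98.8 in WT ESCs, a difference of 5.66 ± 0.36 with C (adjusted p = 0.00141) and 5.81 ± 0.09 without C. Krt18 had 3268 and 3575 in WT EBs, against 87.3, 79.4 and 105 in WT ESCs, a difference of 5.23 ± 0.37 with C (adjusted p = 0.00176) and 5.34 ± 0.10 without C. In the list of surface ectoderm and simple epithelium, 3 of 12 tested genes (of 15 listed) were higher and 0 lower with all 5 libraries, and 10 were higher and 2 lower without C, with median log2 differences of 2.18 and 2.35. Krt14, a keratin of stratified epithelium, was the third at 32.2 and 34.4 in WT EBs, against 2.15, 0.763 and 0 in WT ESCs. Its partner Krt5 and the factor Trp63 were under the expression minimum. Krt19 had 956 and 869 in WT EBs, against 9.30, 15.3 and 115 in WT ESCs, above every ESC library, and 6.14 ± 0.23 (adjusted p = 5.51e-07) without C. Cdh1 (E-cadherin) had 1274 and 1306 in WT EBs, against 1971, 1989.9 and 3017 in WT ESCs, below every ESC library, and -0.62 ± 0.06 (adjusted p = 7.93e-05) without C. Epcam, an adhesion protein of epithelia and ESCs, had 1423 and 1411 in WT EBs, against 768, 811 and 2737 in WT ESCs, above A and B but below C. The counts of this list stand beside 2.22% of all genes higher with C, and 22.8% higher and 23.8% lower without it.

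Among factors of the epithelial to mesenchymal transition, 1 of 11 tested genes (of 12 listed) was higher and 0 lower with all 5 libraries, and 8 were higher and 2 lower without C, with median log2 differences of 1.70 and 0.90. The gene that passed was Twist1, with 162 and 110.2 in WT EBs, against 47.9, 45.0 and 26.4 in WT ESCs. Among all genes, 2.22% were higher with C, and 22.8% were higher and 23.8% lower without it. Snai1 had 88.1 and 69.7 in WT EBs, against 10.0, 1.53 and 52.7 in WT ESCs, above every ESC library, and passed only without C. Zeb1 had 217 and 237 in WT EBs, against 349.8, 401 and 132 in WT ESCs, below A and B and above C.

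Among genes that passed in both fits, did not overlap and had a mean of 100 or more in EBs, the 12 with the largest rise were Cubn, Myl3, Hkdc1, Cyp26a1, Foxa2, Pth1r, Sema6d, Afp, Slc34a2, Frzb, Clic6 and Nog. Myl3, an essential myosin light chain of heart and slow muscle, had 808 and 813 in WT EBs, against 0, 1.53 and 0 in WT ESCs, a log2 difference of 9.22 ± 1.04 with C (adjusted p = 0.00664). Antisense transcripts, among them Pth1r of the same 12, cover 4.6% of the exon bases of Myl3, and the library kit does not keep the strand. Hkdc1, a hexokinase family member, had 1258 and 1217 in WT EBs, against 2.15, 4.58 and 3.29 in WT ESCs. Sema6d, a membrane semaphorin, had 356 and 354 in WT EBs, against 2.86, 0.763 and 0 in WT ESCs. Slc34a2, a sodium-phosphate cotransporter, had 162 and 174 in WT EBs, against 0, 0 and 0 in WT ESCs, at least 168-fold higher than 3 reads over the ESC group. Frzb, a secreted Wnt antagonist, had 163 and 140.3 in WT EBs, against 0, 0 and 0 in WT ESCs, at least 152-fold higher. Clic6, of the chloride intracellular channel family, had 792 and 769 in WT EBs, against 14.3, 9.92 and 0 in WT ESCs.

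Signalling genes changed place with the choice of ESC library. The MEK inhibitor of ESC medium blocks ERK signalling, and ERK targets and feedback genes read out that pathway. 2 of 14 tested genes were higher and 0 lower with all 5 libraries, and 9 were higher and 1 lower without C, with median log2 differences of 0.78 and 1.84. Against C alone the median was -1.33, so the sign depends on the ESC library. Both EB libraries lay above A and B but below C for 10 of the 14 genes, against 9.91% of all tested genes. The shares of all genes called were 2.22% higher with C, and 22.8% higher and 23.8% lower without it. Spry4, a feedback inhibitor of receptor tyrosine kinases, had 227 and 195 in WT EBs, against 0, 0.763 and 2447 in WT ESCs, a difference of 7.32 ± 0.36 (adjusted p = 1.83e-06) without C. Etv4, an ETS factor downstream of FGF, had 587 and 509.6 in WT EBs, against 47.2, 40.5 and 1986 in WT ESCs, a difference of 3.62 ± 0.18 (adjusted p = 1.81e-06) without C. Dusp6, the ERK phosphatase, had 589 and 545 in WT EBs, against 53.6, 52.7 and 629 in WT ESCs. Egr1, an immediate early factor, had 47.5 and 39.6 in WT EBs, against 2.15, 0 and 122 in WT ESCs. All 4 had higher values in C than in EBs. The genes that passed with all libraries were Dusp4, a nuclear ERK phosphatase, with 888 and 719 in WT EBs, against 62.2, 62.6 and 178 in WT ESCs, and Ier3. Ier3, an immediate early gene, had 254 and 249.6 in WT EBs, against 49.4, 47.3 and 62.6 in WT ESCs.

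Among Nodal and BMP pathway genes, 3 of 16 tested genes (of 17 listed) were higher and 0 lower with all 5 libraries. Without C, 12 were higher and 2 lower, and the median log2 differences with and without C were 1.32 and 2.43. With all 5 libraries, 2.22% of all genes were higher. Of all genes, 22.8% were higher and 23.8% lower without C. The BMP antagonist Nog (noggin) had 998 and 724 in WT EBs, against 20.7, 12.2 and 0 in WT ESCs, a difference of 7.01 ± 1.40 with C (adjusted p = 0.0462) and 5.65 ± 0.31 without C. Grem1 (gremlin), another BMP antagonist, had 578 and 605 in WT EBs, against 4.29, 5.34 and 32.9 in WT ESCs, a difference of 5.83 ± 0.84 with C (adjusted p = 0.0147) and 6.68 ± 0.19 without C. Both were above every ESC library. The ligand Bmp2 had 132 and 85.2 in WT EBs, against 7.87, 8.40 and 0 in WT ESCs and passed only without C, at 3.55 ± 0.27 (adjusted p = 1.79e-05). The ligand Bmp4 had 58.2 and 52.5 in WT EBs, against 10.0, 7.63 and 646 in WT ESCs. Id1, a direct BMP target, had 181 and 176 in WT EBs, against 3.58, 3.05 and 869.6 in WT ESCs. Bmp4 and Id1 thus lay above A and B but below C. The ligand Nodal had 342 and 306 in WT EBs, against 520.0, 489 and 949 in WT ESCs, a difference of -0.64 ± 0.09 (adjusted p = 0.000419) without C. Its coreceptor Tdgf1 had 1021 and 1135 in WT EBs, against 2506, 2680.0 and 10422 in WT ESCs, a difference of -1.27 ± 0.08 (adjusted p = 5.64e-06) without C. Nodal and Tdgf1 lay below every ESC library.

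**Figure D3:**
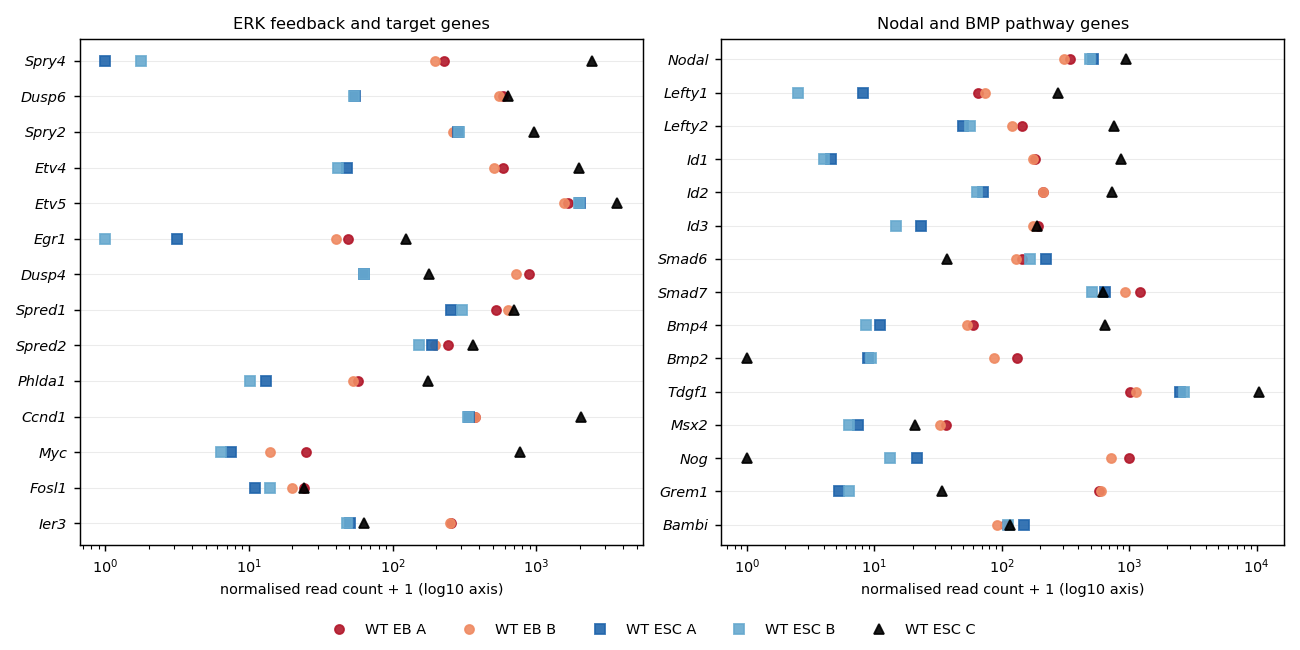
Normalised read count plus 1 in each WT library (log10 axis) for tested members of the ERK list and of the Nodal and BMP list, with EBs as circles, ESC A and B as squares and ESC C as a triangle. Spry4, Etv4, Id1 and Bmp4 show the EB circles between low squares and a high triangle, while Nog, Grem1, Dusp4 and Ier3 have circles right of every ESC symbol.

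In the LIF and STAT3 pathway, 2 of 9 tested genes were higher and 0 lower with all 5 libraries, and 3 were higher and 3 lower without C, with median log2 differences of 0.09 and 0.21. This list and the Wnt and retinoic acid lists below stand beside 2.22% of all genes higher and 0.527% lower with C. Without C the shares of all genes were 22.8% higher and 23.8% lower. Lifr, the LIF receptor, had 1709 and 1897 in WT EBs, against 782, 903 and 596 in WT ESCs, a difference of 1.26 ± 0.22 with C (adjusted p = 0.0299) and 1.10 ± 0.10 without C. Junb, an AP-1 factor, also passed and had 463 and 350.4 in WT EBs, against 124, 109.9 and 194 in WT ESCs. Socs3, the feedback inhibitor of the pathway, had 866 and 812 in WT EBs, against 1328, 1169 and 1449 in WT ESCs, below every ESC library, and -0.57 ± 0.14 (adjusted p = 0.00829) without C. Among Wnt targets, no gene of 9 tested (of 14 listed) passed limma with all 5 libraries, against 2 higher and 2 lower at an unadjusted p under 0.05, 1 and 0 by edgeR and 2 and 2 by DESeq2. Without C 4 were higher and 3 lower, and the median log2 differences with and without C were 0.30 and 0.02. Axin2, a general Wnt target, had 81.2 and 93.0 in WT EBs, against 176, 131 and 65.9 in WT ESCs. Notum, a secreted Wnt inhibitor, had 103 and 90.4 in WT EBs, against 249.7, 235 and 626 in WT ESCs, below every ESC library, with 38.1% of its exon bases under an antisense transcript. Dkk1, another secreted inhibitor, had 78.9 and 68.9 in WT EBs, against 2.86, 3.82 and 6.59 in WT ESCs, above every ESC library. Among retinoic acid genes, 3 of 12 tested genes (of 14 listed) were higher and 0 lower with all 5 libraries, and 6 were higher and 2 lower without C, with median log2 differences of 0.77 and 0.84. Cyp26a1, which degrades retinoic acid, had 663 and 545 in WT EBs, against 2.15, 2.29 and 0 in WT ESCs, a difference of 8.11 ± 1.20 with C (adjusted p = 0.0157) and 7.55 ± 0.34 without C. Stra6, the receptor for retinol-binding protein, had 118 and 98.1 in WT EBs, against 3.58, 5.34 and 0 in WT ESCs. Rdh10, which oxidises retinol, had 195 and 193 in WT EBs, against 75.8, 69.5 and 52.7 in WT ESCs. The synthesis enzyme Aldh1a2 went the other way, with 9.19 and 12.9 in WT EBs, against 39.3, 38.2 and 32.9 in WT ESCs and -1.74 ± 0.27 (adjusted p = 0.000846) without C.

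Imprinted genes are expressed from 1 parental copy, and of those listed, 3 of 21 tested genes (of 24 listed) were higher and 0 lower with all 5 libraries, and 15 were higher and 3 lower without C, with median log2 differences of 1.48 and 1.63. Among all genes, 2.22% were higher with C, and 22.8% were higher and 23.8% lower without it. H19, a long noncoding RNA, had 10244 and 9218 in WT EBs, against 598, 524 and 155 in WT ESCs, a difference of 4.73 ± 0.92 with C (adjusted p = 0.0426) and 4.11 ± 0.13 without C. Its neighbour Igf2, the growth factor, had 110.3 and 74.9 in WT EBs, against 45.8, 46.6 and 65.9 in WT ESCs, a difference of 0.96 ± 0.27 (adjusted p = 0.0175) without C, but 62.8% of its exon bases lie under another gene on the same strand, so its count is uncertain. The 3 noncoding RNAs Meg3, Rian and Mirg, of 1 cluster on chromosome 12, were higher in EBs than in every ESC library. Of all tested genes, 23.3% held that position. Meg3, a long noncoding RNA, had 1843 and 1771 in WT EBs, against 377, 340.4 and 849.9 in WT ESCs. Rian, a host of small nucleolar RNAs, had 3204 and 3653 in WT EBs, against 769, 875 and 1799 in WT ESCs. Mirg, a host of microRNAs, had 642 and 701 in WT EBs, against 178, 163 and 211 in WT ESCs, a difference of 1.87 ± 0.28 with C (adjusted p = 0.0173) and 1.97 ± 0.13 without C. Meg3 and Rian passed only without C. Sgce, which encodes a sarcoglycan, had 269.7 and 288 in WT EBs, against 57.9, 55.7 and 32.9 in WT ESCs, a difference of 2.53 ± 0.31 with C (adjusted p = 0.00853) and 2.28 ± 0.14 without C. Peg10, which starts next to Sgce, had 2609.6 and 2724 in WT EBs, against 100.1, 81.7 and 2948 in WT ESCs, so that only A and B were below the EBs. Plagl1, a zinc finger factor, had 29.9 and 30.1 in WT EBs, against 209.6, 228 and 224 in WT ESCs, below every ESC library, and -2.83 ± 0.22 (adjusted p = 1.81e-05) without C.

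Markers of embryonic mesoderm and heart gave a thinner pattern. T (brachyury), Mesp1 and Mixl1 were under the expression minimum, T with 3.06 and 1.72 in WT EBs, against 2.15, 3.82 and 3.29 in WT ESCs. In the early mesoderm list, 2 of 10 tested genes (of 16 listed) were higher and 0 lower with all 5 libraries, and 8 were higher and 0 lower without C, with median log2 differences of 0.86 and 1.46. The genes that passed were Pdgfra and Twist1, given above. This list and the heart and muscle lists below stand beside 2.22% of all genes higher and 0.527% lower with C. Without C the shares of all genes were 22.8% higher and 23.8% lower. Eomes, a T-box factor, had 126 and 107 in WT EBs, against 65.8, 51.1 and 95.5 in WT ESCs, above every ESC library, and passed only without C. Among heart genes, 2 of 12 tested genes (of 20 listed) were higher and 0 lower with all 5 libraries, and 6 were higher and 2 lower without C, with median log2 differences of 0.94 and 0.73. Myl3, with the antisense overlap given above, was 1 of those that passed and Myh7, a slow myosin heavy chain, the other. Myh7 had 302 and 244 in WT EBs, against 4.29, 2.29 and 0 in WT ESCs. The thin filament genes Tnnt2 and Actc1 were under the minimum, Tnnt2 with 1.53 and 4.30 in WT EBs, against 5.01, 2.29 and 3.29 in WT ESCs. Ttn (titin) had 238 and 308 in WT EBs, against 2296, 2604 and 42.8 in WT ESCs, below A and B and above C, and -3.17 ± 0.14 (adjusted p = 1.17e-06) without C. For skeletal and smooth muscle, no gene of 10 tested (of 14 listed) passed limma with all 5 libraries, against 1 higher and 2 lower at an unadjusted p under 0.05, 0 and 1 by edgeR and 1 and 2 by DESeq2. Without C 1 was higher and 5 lower, and the median log2 differences with and without C were -0.14 and -0.53. Acta2, smooth muscle actin, had 41.4 and 31.0 in WT EBs, against 258, 279 and 92.2 in WT ESCs, below every ESC library.

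Lists for blood, nerve and other fates stand beside 2.22% of all genes higher and 0.527% lower with C, and 22.8% higher and 23.8% lower without it. Each has few tested members. For blood and endothelium, 1 of 13 tested genes (of 19 listed) was higher and 0 lower with all 5 libraries, and 5 were higher and 2 lower without C, with median log2 differences of 0.52 and 0.56. The VEGF receptor Flt1 had 224 and 226 in WT EBs, against 16.5, 6.11 and 13.2 in WT ESCs. Cdh5 (VE-cadherin) had 52.9 and 49.9 in WT EBs, against 0, 0 and 6.59 in WT ESCs, above every ESC library, and passed only without C. The embryonic globins Hbb-bh1 and Hbb-y had no read in any of the 5 libraries. Among neural genes, 0 of 11 tested genes (of 20 listed) were higher and 2 lower with all 5 libraries, and 1 was higher and 5 lower without C, with median log2 differences of -0.64 and -0.05. Those that fell were neighbouring factors of motor neuron and oligodendrocyte precursors. Olig2 had 96.5 and 78.3 in WT EBs, against 337, 307 and 250.3 in WT ESCs, a difference of -1.75 ± 0.24 with C (adjusted p = 0.0126) and -1.87 ± 0.17 without C. Olig1 had 70.5 and 53.4 in WT EBs, against 199, 151 and 217 in WT ESCs, a difference of -1.59 ± 0.28 with C (adjusted p = 0.0286) and -1.48 ± 0.18 without C. For neural crest, 1 of 6 tested genes (of 10 listed) was higher and 0 lower with all 5 libraries, and 1 was higher and 3 lower without C, with median log2 differences of -0.36 and -0.60. Ets1, an ETS factor, had 362 and 365 in WT EBs, against 27.2, 33.6 and 9.88 in WT ESCs. For Hox genes, no gene of 5 tested (of 23 listed) passed limma with all 5 libraries, against 0 higher and 0 lower at an unadjusted p under 0.05, 0 and 0 by edgeR and 0 and 0 by DESeq2. Without C 0 were higher and 1 lower, and the median log2 differences with and without C were 0.16 and -0.36. For trophectoderm, no gene of 6 tested (of 12 listed) passed limma with all 5 libraries, against 2 higher and 0 lower at an unadjusted p under 0.05, 1 and 0 by edgeR and 1 and 0 by DESeq2. Without C 3 were higher and 1 lower, and the median log2 differences with and without C were 0.64 and 0.59. Cdx2 was under the minimum at 18.4 and 15.5 in WT EBs, against 2.86, 0 and 9.88 in WT ESCs.

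Naive pluripotency genes were mostly lower in EBs, and most of them passed only without C. The summed level of 6 ESC markers was 16674 and 15099 in WT EBs, against 31885, 29454 and 62715 in WT ESCs. These were Nanog, Zfp42, Esrrb, Tfcp2l1 and the general pluripotency genes Pou5f1 and Sox2, so the sum is not of naive genes alone. Sox2 went the other way in C, where it lay below both EB libraries. In the naive list, 0 of 19 tested genes were higher and 1 lower with all 5 libraries. Without C, 1 was higher and 16 lower, and the median log2 differences with and without C were -1.06 and -0.89. Of the 19 genes, 15 lay below every ESC library. Among all genes, 0.527% were lower with C and 23.8% without it, and 19.6% lay below every ESC library. Prdm14, a factor that guards the naive state, had 181 and 189 in WT EBs, against 690.3, 691 and 497 in WT ESCs, a difference of -1.74 ± 0.20 with C (adjusted p = 0.00705) and -1.89 ± 0.09 without C. Nanog, a homeobox factor of naive cells, had 1201 and 1432 in WT EBs, against 3279, 3834 and 7777 in WT ESCs, a difference of -1.43 ± 0.11 (adjusted p = 2.30e-05) without C. Zfp42 (Rex1) had 674 and 749 in WT EBs, against 1299.8, 1380.0 and 10771 in WT ESCs. Esrrb, an orphan nuclear receptor, had 2194 and 2151 in WT EBs, against 3875, 3618 and 8027 in WT ESCs. Tfcp2l1, a target of the LIF pathway, had 1843 and 1814 in WT EBs, against 4409, 4496 and 3956 in WT ESCs. All 5 lay below every ESC library. The difference of Zfp42 was -1.92 ± 0.96 with C (adjusted p = 0.426) and -0.91 ± 0.08 without C. Klf5 had 467 and 307 in WT EBs, against 449.9, 298 and 718 in WT ESCs, with overlapping groups. Manba, which encodes a lysosomal mannosidase, was higher at 1353 and 1538 in WT EBs, against 302, 327 and 965 in WT ESCs, with 2.20 ± 0.14 (adjusted p = 8.25e-06) without C.

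Among core and general pluripotency genes, no gene of 13 tested passed limma with all 5 libraries, against 0 higher and 3 lower at an unadjusted p under 0.05, 0 and 0 by edgeR and 0 and 2 by DESeq2. Without C 4 were higher and 5 lower, and the median log2 differences with and without C were -0.30 and -0.13. Of all genes, 22.8% were higher and 23.8% lower without C. Pou5f1 (Oct4) had 4431 and 4035 in WT EBs, against 9280.0, 8416 and 28269 in WT ESCs, below every ESC library, and -1.06 ± 0.10 (adjusted p = 5.09e-05) without C. Sox2, its partner factor, had 6331 and 4918 in WT EBs, against 9742, 7709 and 3913 in WT ESCs, below A and B and above C, and -0.64 ± 0.19 (adjusted p = 0.0213) without C. Lin28a, which blocks maturation of let-7 microRNAs, had 1063 and 1023 in WT EBs, against 307, 303 and 3847 in WT ESCs, above A and B and below C, and 1.77 ± 0.13 (adjusted p = 1.41e-05) without C. Utf1, a chromatin-associated factor, had 1072 and 764 in WT EBs, against 291, 206 and 2517 in WT ESCs, in the same position. For the primed epiblast, no gene of 9 tested (of 11 listed) passed limma with all 5 libraries, against 2 higher and 0 lower at an unadjusted p under 0.05, 0 and 0 by edgeR and 0 and 0 by DESeq2. Without C 5 were higher and 2 lower, and the median log2 differences with and without C were 0.56 and 0.94. Otx2, a homeobox factor, had 235 and 245 in WT EBs, against 80.1, 48.1 and 175 in WT ESCs, above every ESC library. Fgf5, a marker of this state, was under the minimum at 10.7 and 9.47 in WT EBs, against 0, 0.763 and 3.29 in WT ESCs.

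Scd1 and Scd2, paralogous enzymes that put a double bond into saturated fatty acids, were among the 3 genes with the largest fall of those that passed in both fits, did not overlap and had a mean of 100 or more in ESCs. Scd1 had 180.1 and 164 in WT EBs, against 2253, 2253 and 859.7 in WT ESCs, a difference of -3.24 ± 0.41 with C (adjusted p = 0.00900) and -3.71 ± 0.09 without C. Scd2 had 719 and 731 in WT EBs, against 4648, 4754 and 4197 in WT ESCs, a difference of -2.64 ± 0.27 with C (adjusted p = 0.00430) and -2.69 ± 0.06 without C. Accsl, named after its likeness to a plant-type synthase, had 21.5 and 22.4 in WT EBs, against 325, 337 and 122 in WT ESCs, a difference of -3.38 ± 0.53 with C (adjusted p = 0.0193) and -3.86 ± 0.13 without C. Rpp25, a subunit of RNase P, had 153 and 124 in WT EBs, against 583, 484 and 965 in WT ESCs. Sod2, the mitochondrial superoxide dismutase, had 559 and 509.6 in WT EBs, against 2037, 2024 and 2783 in WT ESCs. Gabarapl2, an autophagy protein, had 184 and 198 in WT EBs, against 506, 588 and 1347 in WT ESCs. Mt2, a metallothionein, had 1121 and 1011 in WT EBs, against 3270.5, 3291 and 7767 in WT ESCs, with 73.5% of its exon bases under antisense transcripts. Fam25c, Capsl, Ccdc160, Tmem47 and Olig2 complete the 12, with log2 differences from -2.14 to -1.75. Ccdc160 and Tmem47 are on the X chromosome. C lay above A and B for Tmem47 and below them for Ccdc160.

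Genes for cholesterol synthesis were mostly lower in EBs. 0 of 19 tested genes were higher and 3 lower with all 5 libraries, and 1 was higher and 15 lower without C, with median log2 differences of -1.01 and -1.13, against 0.527% of all genes lower with C and 23.8% without it. Both EB libraries lay below every ESC library for 15 of them, against 19.6% of all tested genes. Msmo1, a sterol oxidase, had 272 and 276 in WT EBs, against 1037, 1075 and 606 in WT ESCs, a difference of -1.67 ± 0.28 with C (adjusted p = 0.0247) and -1.94 ± 0.08 without C. Sqle, squalene epoxidase, had 354 and 372 in WT EBs, against 812, 817 and 866 in WT ESCs. Fdft1, squalene synthase, had 397 and 387 in WT EBs, against 785, 839 and 1482 in WT ESCs. These 3 passed with all libraries. Hmgcs1, at the entry of the pathway, had 922 and 1012 in WT EBs, against 2764, 3115 and 1127 in WT ESCs, below every ESC library, and -1.60 ± 0.10 (adjusted p = 5.38e-06) without C. Insig1, which holds the sterol sensor in the endoplasmic reticulum, was higher at 3367 and 2864 in WT EBs, against 2275, 1967 and 849.9 in WT ESCs, with 0.55 ± 0.13 (adjusted p = 0.00713) without C. Fasn, fatty acid synthase, chosen after its values were seen, had 2839 and 2595 in WT EBs, against 4893, 4648 and 3874 in WT ESCs, below every ESC library, a difference of -0.71 ± 0.16 with C (adjusted p = 0.0608) and -0.81 ± 0.08 without C.

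**Figure D4:**
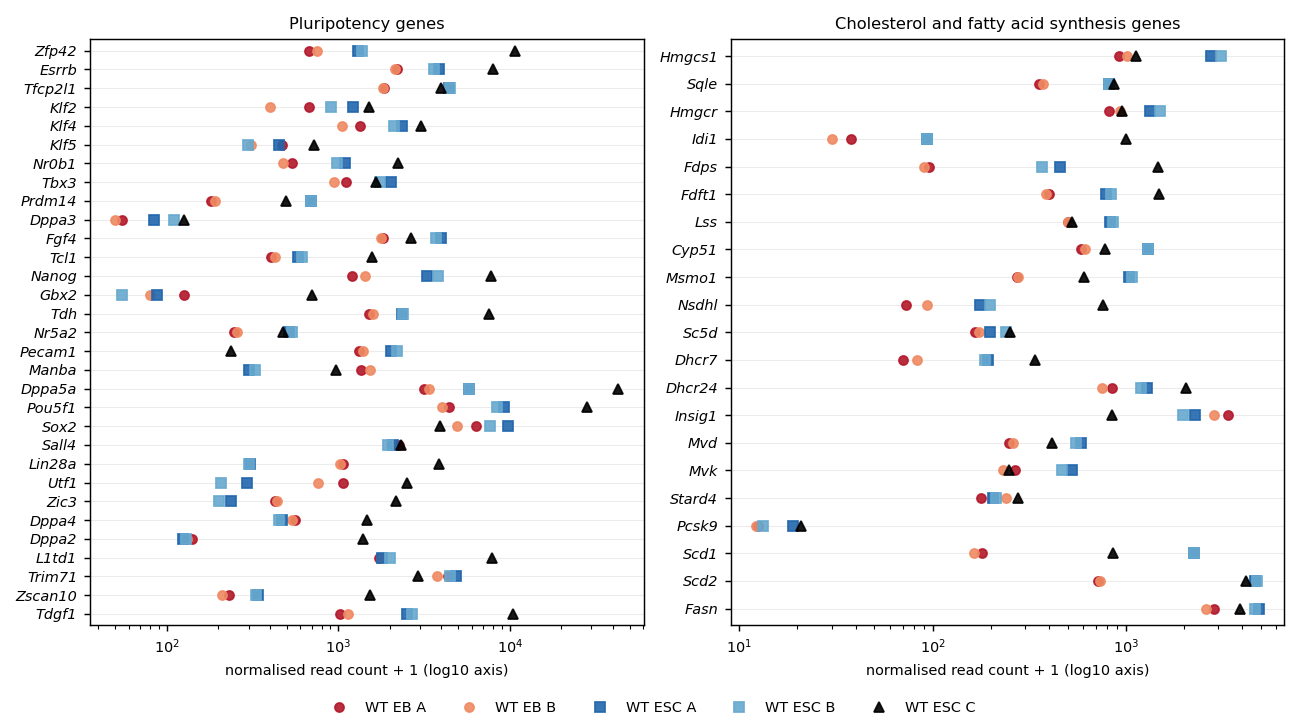
Normalised read count plus 1 in each WT library (log10 axis) for pluripotency genes (left) and for genes of cholesterol and fatty acid synthesis (right), with EBs as circles, ESC A and B as squares and ESC C as a triangle. EB circles lie left of every ESC symbol for Nanog, Pou5f1, Esrrb and Prdm14 and for Scd1, Scd2, Msmo1 and Sqle, and Lin28a and Utf1 have circles between squares and triangle.

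DNA replication genes were lower by small steps. 0 of 20 tested genes were higher and 1 lower with all 5 libraries, and 0 were higher and 17 lower without C, with median log2 differences of -0.71 and -0.62. Both EB libraries lay below every ESC library for 18 of the 20, against 19.6% of all tested genes. This list and the mitosis list below stand beside 0.527% of all genes lower with C and 23.8% without it. Mcm6, a subunit of the replicative helicase, had 1869 and 2177 in WT EBs, against 3356, 3823 and 4341 in WT ESCs, a difference of -0.92 ± 0.18 with C (adjusted p = 0.0409) and -0.83 ± 0.12 without C. Pcna, the sliding clamp, had 1031 and 804 in WT EBs, against 1844, 1408 and 4539 in WT ESCs. Tyms, which makes thymidylate, had 261 and 322 in WT EBs, against 544, 579 and 1163 in WT ESCs. For mitosis, no gene of 19 tested passed limma with all 5 libraries, against 0 higher and 2 lower at an unadjusted p under 0.05, 0 and 0 by edgeR and 0 and 1 by DESeq2. Without C 0 were higher and 5 lower, and the median log2 differences with and without C were -0.32 and -0.24. Mki67, the common proliferation marker, had 1692 and 1997 in WT EBs, against 1398, 1576 and 1993 in WT ESCs, with overlapping groups.

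Among writers and readers of DNA methylation, 0 of 13 tested genes were higher and 2 lower with all 5 libraries, and 6 were higher and 4 lower without C, with median log2 differences of -0.32 and 0.16. Of all genes, 0.527% were lower with C, and 22.8% were higher and 23.8% lower without it. Uhrf1, which brings Dnmt1 to newly copied DNA, had 1249 and 1146 in WT EBs, against 3149, 3178 and 5412 in WT ESCs, a difference of -1.66 ± 0.25 with C (adjusted p = 0.0161) and -1.40 ± 0.07 without C. Zfp57, which keeps methylation at imprinted loci, had 2313 and 2349 in WT EBs, against 5636, 5890.4 and 8686 in WT ESCs, a difference of -1.50 ± 0.21 with C (adjusted p = 0.0119) and -1.31 ± 0.06 without C. Both lay below every ESC library. Dnmt1, the maintenance enzyme, had 3142 and 3129.9 in WT EBs, against 5267, 5039 and 2283 in WT ESCs, below A and B and above C. Dnmt3b, a de novo enzyme, had 950.1 and 968 in WT EBs, against 438, 408 and 949 in WT ESCs and passed only without C. For polycomb genes, no gene of 17 tested passed limma with all 5 libraries, against 1 higher and 4 lower at an unadjusted p under 0.05, 0 and 0 by edgeR and 1 and 1 by DESeq2. Without C 2 were higher and 10 lower, and the median log2 differences with and without C were -0.09 and -0.32. Ezh2, the main methyltransferase of the complex, had 397 and 437 in WT EBs, against 714, 791 and 1703 in WT ESCs, below every ESC library. Its relative Ezh1 had 712 and 751 in WT EBs, against 351, 385 and 194 in WT ESCs, above every ESC library, and both passed only without C.

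Among genes of fibroblasts and interstitial matrix, no gene of 23 tested (of 24 listed) passed limma with all 5 libraries, against 6 higher and 0 lower at an unadjusted p under 0.05, 1 and 0 by edgeR and 4 and 0 by DESeq2. Without C 11 were higher and 10 lower, and the median log2 differences with and without C were 1.20 and 0.23. Of all genes, 22.8% were higher and 23.8% lower without C. Both EB libraries lay above every ESC library for 10 of the 23 matrix genes, and below A and B but above C for another 10. The shares of all tested genes in these positions were 23.3% and 16.5%. Col1a1, a fibrillar collagen chain, had 448 and 405 in WT EBs, against 984, 907 and 56.0 in WT ESCs, a difference of -1.15 ± 0.09 (adjusted p = 1.82e-05) without C. Its partner Col1a2 had 856 and 838 in WT EBs, against 2110.2, 2201 and 36.2 in WT ESCs, a difference of -1.35 ± 0.07 (adjusted p = 1.83e-06) without C. Col3a1, another fibrillar collagen, had 1464 and 1469 in WT EBs, against 3115, 3171 and 23.1 in WT ESCs, a difference of -1.10 ± 0.06 (adjusted p = 4.49e-06) without C. ESC A and B thus held more of these collagens than EBs, and C held less, and with C included their differences were 0.20, 0.61 and 1.24. Postn (periostin) and Lum (lumican) had no read in C. Postn had 46.7 and 57.7 in WT EBs, against 234, 300.0 and 0 in WT ESCs. Col6a1, a chain of the beaded collagen VI, had 1738 and 1617 in WT EBs, against 271, 255 and 19.8 in WT ESCs, above every ESC library, and 2.67 ± 0.09 (adjusted p = 2.52e-07) without C. Its partner Col6a2 had 751 and 688 in WT EBs, against 122, 111 and 13.2 in WT ESCs, with 2.62 ± 0.12 (adjusted p = 1.31e-06) without C.

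**Figure D5:**
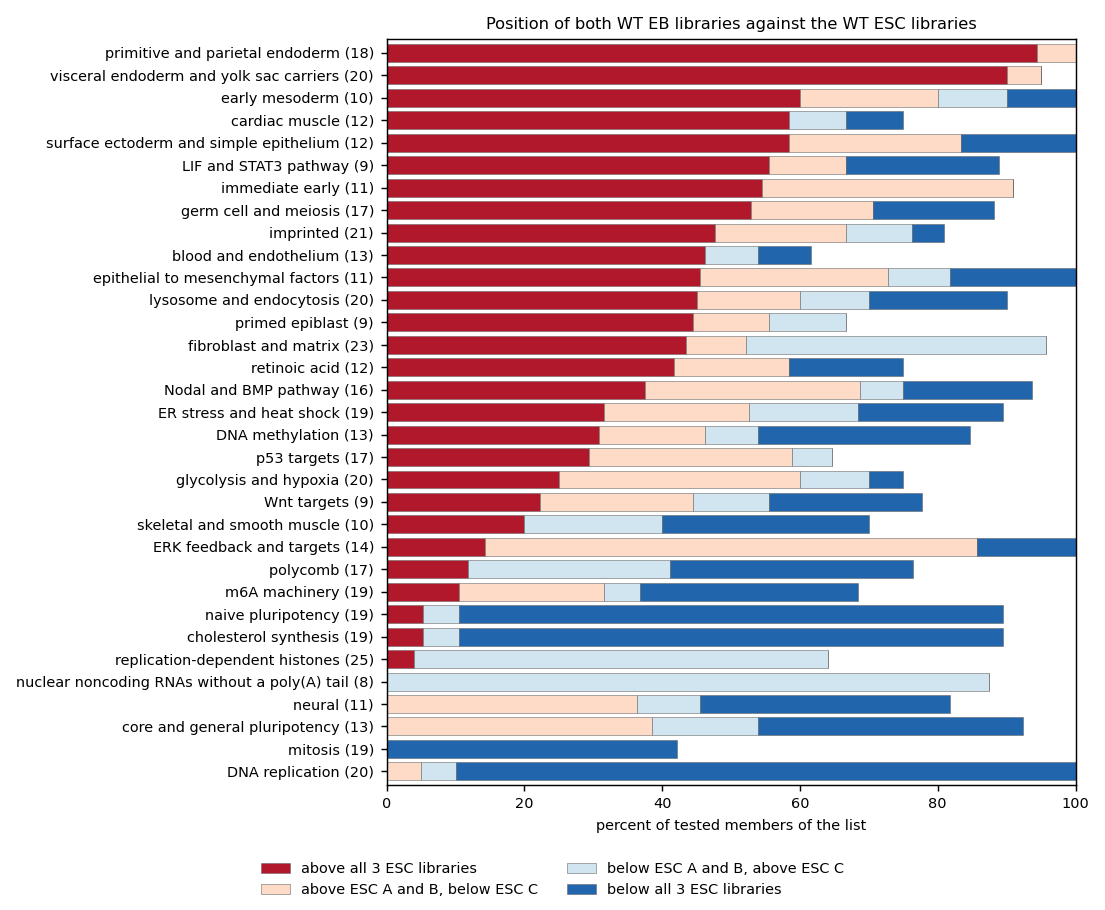
Share of the tested members of each gene list (number in brackets, lists of 8 or more) for which both WT EB libraries lay above all 3 ESC libraries, between ESC A and B and ESC C in either order, or below all 3; the blank remainder overlaps in other ways. The 2 endoderm lists are almost wholly in the first class, DNA replication, naive pluripotency and cholesterol synthesis mostly in the last, and ERK targets, histones and noncoding RNAs without a poly(A) tail mostly in between.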

How the data were processed

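Per the labels, RNA of each library was made with a TruSeq RNA v2 kit, which does not keep the strand. Build mm10, HTSeq 0.6.0 and TopHat2 2.0.10 with Bowtie are listed, among other tools and with no settings, in the submitters' processing notes, beside DESeq. The authors deposited 1 table of signal values per gene, that is read counts divided by DESeq size factors. Each value came back as a whole read count (100% within 0.01), so read depth is known. HTSeq summary lines were left out of library sizes, and the alignments listed there as not unique were 36.9% and 36.9% of all in WT EBs, against 40.6%, 39.9% and 30.6% in WT ESCs.

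Symbols, coordinates and antisense overlap come from GENCODE vM21 (37693 of 39179 identifiers matched), and promoters from RefSeq. Differences were tested on log2(value + 1) with limma 3.58.1 (R 4.3.3), with 4 group means over 10 WT and Mettl3 knockout libraries, trended robust variance, two-sided tests and Benjamini-Hochberg adjustment over 15567 genes. Every fold change is on that scale, which understates changes of low genes, unless called a fold of means. The fit without C leaves out ESC replicate C of both genotypes, and edgeR 4.0.16 and DESeq2 1.42.0 on the recovered reads were alternatives. The script was tested on simulated data. With the observed shift of replicate C put in, the fit with all 5 libraries recovered 0% of log2 changes of 1, 22% of 2 and 66% of 5. The fit without C recovered 72%, 98% and 100% of them. False calls numbered 0 with all 5 libraries and 13 without C, among 15567 genes. The simulation gave every gene the same relative spread beyond counting error and both genotypes the same shift of C. Real genes need not share these settings, so the recovery rates hold only for the simulated data. A gene that did not pass with all 5 libraries may therefore still differ. Named genes are the 12 with the largest difference per direction that passed in both fits and reached a mean of 100 in the group with more reads, plus leading, called and most abundant members of each list. Other list members named were chosen after their values were seen, and a few members that count in their lists are not reported here by name. The members and gene lists were chosen with earlier results of these data known. Letters A and B are shared by EBs and ESCs, but with 2 pairs they were not taken to pair the libraries.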

Additional observations from a re-analysis of the deposited data

Results flagged for a closer look

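For 13 of the named genes, the difference of EBs from ESCs was not the same in WT and in Mettl3 knockout cells, by a test of the difference itself (interaction term of the limma fit over 15567 genes and 10 libraries, where 86 genes had an adjusted p under 0.05). Of the 86, 76 had a WT difference above the knockout difference and 10 below it. Many named genes were chosen for a large WT difference, which is part of the tested value. That choice favours large values, so these genes are not independent evidence. Each value is the WT difference less the knockout difference on the log2 scale. It was 8.98 for Cubn, 7.94 for S100g, 7.86 for Slc34a2, 7.70 for Frzb, 6.74 for Krt8, 6.69 for Sema6d and 5.85 for Apoa1. Gata4 gave 5.77, Col4a1 5.73, Krt18 4.99 and Sgce 3.56. The neighbours Olig2 and Olig1 had a negative value, with -2.36 and -2.93. In knockout cells the EB minus ESC difference itself was 0.61 for Cubn, -0.53 for Gata4, 0.96 for Col4a1, -1.08 for Krt8 and 0.60 for Olig2. ESC replicate C of both genotypes was in this fit, and its part in these values was not tested. Groups of 2 and 3 libraries are too small to search for single deviating libraries.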

How the results depend on the processing

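With all 5 libraries the 428 calls (346 higher, 82 lower) became 59 when only the WT libraries set the spread, 211 with a minimum mean of 100, 1701 (1571 higher, 130 lower) with no minimum, 1549 (1027 higher, 522 lower) by DESeq2 and 11863 against ESC replicate C alone, and leaving out 1 library gave 5 to 771, 5 without either EB library. In each case the cause was not tested. A fit with the letter as replicate block called 4522 (2189 higher, 2333 lower), including all 428. The A minus B differences of EBs and ESCs correlated over genes with r = 0.377 (2 pairs), and the labels give no shared origin, so the libraries share only a letter. Pseudocounts of 0.5 and 5, TMM, edgeR and protein-coding genes alone gave 385 to 550. Without ESC replicate C every alternative stayed within 1.5 times of 7255, at 4978 to 10158, with 10158 under the replicate block and 5642 to 5920 when a further library was left out. Of 149 named genes, 82 lost their call without EB replicate A and 82 without EB replicate B, 41 without ESC replicate A, 44 without ESC replicate B, 62 when only the WT libraries set the spread, 15 with a minimum mean of 100, 8 with edgeR and 4 with DESeq2. These 149 genes mix both fits. Those called with all 5 libraries were scored in that fit, and the others, some of them never called, in the fit without C. When replicate C was added for the others, 56 lost their call with the same sign. A further 7 changed sign: Col1a1 to 0.20, Col1a2 to 0.61, Col3a1 to 1.24, Postn to 0.36, Rn7sk to 5.42, Pgk1 to -1.33 and Klf5 to -0.27. Klf5, not called, also ranged from -0.25 to 0.35 when 1 library was left out. At 3 reads the floor is 2.30 and 2.58 normalised counts in WT EBs, against 2.15, 2.29 and 9.88 in WT ESCs, so genes below about 10 cannot be read in C.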

Other observations

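Immediate early genes respond within minutes to growth factors and handling. In this list, 4 of 11 tested genes (of 14 listed) were higher and 0 lower with all 5 libraries, and 10 were higher and 0 lower without C, with median log2 differences of 1.53 and 1.73. All lists of this paragraph stand beside 2.22% of all genes higher with C, and 22.8% higher and 23.8% lower without it. Jun had 500.3 and 403 in WT EBs, against 68.7, 45.0 and 65.9 in WT ESCs, a difference of 2.91 ± 0.26 with C (adjusted p = 0.00287) and 2.99 ± 0.21 without C. Klf6 had 858 and 875 in WT EBs, against 376, 413 and 343 in WT ESCs, a difference of 1.20 ± 0.15 with C (adjusted p = 0.00842) and 1.14 ± 0.08 without C. Fos, above every ESC library, passed only without C, at 2.50 ± 0.24 (adjusted p = 5.70e-05). For glycolysis and hypoxia, 1 of 20 tested genes was higher and 0 lower with all 5 libraries, and 11 were higher and 3 lower without C, with median log2 differences of 0.40 and 0.36. The gene that passed with all 5 libraries was P4ha1, given above with the collagen genes. Slc2a1, the main glucose transporter, had 5819 and 5117 in WT EBs, against 1405, 1271 and 9714 in WT ESCs, above A and B and below C. Egln3, an oxygen sensor, had 428 and 399 in WT EBs, against 25.8, 27.5 and 488 in WT ESCs, in the same position. Pgk1, a glycolytic enzyme with near-identical pseudogene copies and therefore an uncertain count, had 633 and 605 in WT EBs, against 535, 433 and 16282 in WT ESCs. For p53 targets, no gene of 17 tested passed limma with all 5 libraries, against 4 higher and 0 lower at an unadjusted p under 0.05, 0 and 0 by edgeR and 2 and 0 by DESeq2. Without C 11 were higher and 1 lower, and the median log2 differences with and without C were 0.34 and 0.56.

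For lysosomal genes, 2 of 20 tested genes were higher and 0 lower with all 5 libraries, and 11 were higher and 5 lower without C, with median log2 differences of 0.35 and 0.44. Each list of this paragraph stands beside 2.22% of all genes higher and 0.527% lower with C. Without C the shares of all genes were 22.8% higher and 23.8% lower. For stress of the endoplasmic reticulum and heat shock, 2 of 19 tested genes were higher and 0 lower with all 5 libraries, and 6 were higher and 6 lower without C, with median log2 differences of 0.05 and 0.16. Xbp1, a factor of secretory cells, had 1742 and 1766 in WT EBs, against 851, 784 and 672 in WT ESCs, a difference of 1.20 ± 0.23 with C (adjusted p = 0.0409) and 1.10 ± 0.09 without C. The other was Hspa1a, which has a near-identical copy, Hspa1b, and is uncertain. For germ cell genes, no gene of 17 tested passed limma with all 5 libraries, against 4 higher and 1 lower at an unadjusted p under 0.05, 0 and 0 by edgeR and 2 and 1 by DESeq2. Without C 9 were higher and 2 lower, and the median log2 differences with and without C were 0.45 and 0.51. For genes of the two-cell-like state, no gene of 4 tested (of 12 listed) passed limma with all 5 libraries, against 0 higher and 0 lower at an unadjusted p under 0.05, 0 and 0 by edgeR and 0 and 0 by DESeq2. Without C 0 were higher and 1 lower, and the median log2 differences with and without C were -0.39 and -0.86. For macrophage and immune genes, no gene of 2 tested (of 13 listed) passed limma with all 5 libraries, against 1 higher and 0 lower at an unadjusted p under 0.05, 0 and 0 by edgeR and 1 and 0 by DESeq2. Without C 2 were higher and 0 lower, and the median log2 differences with and without C were 0.92 and 1.09. Ptprc, the pan-leukocyte marker, had 0 and 1.72 in WT EBs, against 0, 0 and 0 in WT ESCs. For histones, no gene of 25 tested (of 29 listed) passed limma with all 5 libraries, against 0 higher and 0 lower at an unadjusted p under 0.05, 0 and 0 by edgeR and 0 and 0 by DESeq2. Without C 1 was higher and 14 lower, and the median log2 differences with and without C were 2.96 and -0.58. For noncoding RNAs without a poly(A) tail, no gene of 8 tested (of 13 listed) passed limma with all 5 libraries, against 0 higher and 0 lower at an unadjusted p under 0.05, 0 and 0 by edgeR and 0 and 0 by DESeq2. Without C 0 were higher and 4 lower, and the median log2 differences with and without C were 2.95 and -0.68. Against C alone the medians of these last lists were 9.63 and 10.19. For the m6A machinery, 0 of 19 tested genes were higher and 1 lower with all 5 libraries, and 4 were higher and 5 lower without C, with median log2 differences of -0.11 and 0.04. Igf2bp3, an RNA-binding protein, was the gene that fell, with 301 and 328 in WT EBs, against 677, 740.4 and 1071 in WT ESCs.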
